A study of Rattus norvegicus with 8 samples.

Results

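The nuclear genes for the proteins of the mitochondrial ribosome were examined in rat liver after dietary exposure to potassium perfluorooctanesulfonate (PFOS), a persistent perfluorinated surfactant known to activate the lipid-sensing receptor PPARA in rodent liver. Members were all genes whose RefSeq symbol begins with Mrpl (large subunit) or Mrps (small subunit) followed by a number, pseudogenes left out. The RefSeq table of the GRCr8 rat assembly lists 78 such protein-coding genes, and 66 of them (42 large, 24 small) were matched to 77 of the 30367 probes on the array, among 15154 symbols with a probe. All 66 were measured well enough to be tested, within 15203 tested genes and features. Mrpl47 was well above background on 5 of the 8 arrays and each of the other 65 on all 8. The other 12 symbols, among them Mrpl28, Mrpl33, Mrpl43, Mrps6, Mrps7, Mrps10 and Mrps28, were not analysed here.

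Livers came from adult male Sprague-Dawley rats fed either a control diet (4 rats) or a diet with PFOS at 50 mg/kg (4 rats) for 28 days. Total RNA with an integrity number of at least 8 was labelled with Cy5 and hybridised on 8 arrays of 1 slide against a universal rat reference RNA labelled with Cy3. The dyes were not swapped, so an effect of dye cannot be told apart from the ratio's level, though it is shared by both groups. 3 quantities are used: the log2 ratio of Cy5 to Cy3, the log2 Cy5 signal alone and the log2 Cy3 signal alone. A change is PFOS minus control on the log2 scale. A gene is said to have changed, risen or fallen where its limma p-value, adjusted over all 15203 features by the Benjamini-Hochberg method, was under 0.05.

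Mitochondria carry their own ribosomes, which translate the few messages of mitochondrial DNA, all of them for subunits of the respiratory chain and the ATP synthase. The ribosomal RNAs are made inside the organelle, whereas every protein of the ribosome is encoded in the nucleus, translated in the cytosol and imported. The symbols follow the history of discovery rather than structure in every case: the products of Mrps30 and Mrps18a are known to sit in the large subunit, although they are grouped with Mrps genes below because the grouping goes by symbol.

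The transcripts of the mitochondrial ribosome stayed close to their control levels as a group, and a pair of members rose. Mrpl14 rose by 0.57 (SE 0.11, limma adjusted p = 0.0236), which is 1.49-fold (95% interval 1.25 to 1.77). Mrps18b rose by 0.48 (SE 0.10, limma adjusted p = 0.0324), which is 1.39-fold (95% interval 1.19 to 1.62). No member fell by this test. The 2 of 66 members are 3.03% of the family, against 3.99% of all tested features (1.84% higher and 2.14% lower), so the share that changed was near the background. At an unadjusted p under 0.05 there were 12 members, 9 higher and 3 lower, where 19.9% of all features passed that mark.

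Mrpl14 encodes a conserved protein on the face of the large subunit that meets the small one, and it is the docking site of the assembly factor encoded by Malsu1. Its log2 ratio was 0.64, 0.66, 1.01 and 0.80 in control 1 to 4 (0.78 ± 0.17, SD, n = 4) and 1.48, 1.17, 1.29 and 1.46 in PFOS 1 to 4 (1.35 ± 0.15, SD, n = 4). Every PFOS array lay above every control array. In Cy5 alone the change was 0.51 (SE 0.10, limma adjusted p = 0.0267), and in the reference channel Cy3 it was -0.03. Arrays lie in 2 rows of the slide, each with 2 control and 2 PFOS arrays, and the change was 0.67 within the first row and 0.47 within the second.

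Mrps18b is 1 of 3 mammalian genes related to the bacterial small-subunit protein S18. Its log2 ratio was 0.63, 0.55, 0.59 and 0.63 in the control arrays (0.60 ± 0.04, SD, n = 4) and 1.20, 1.26, 0.86 and 0.99 in the PFOS arrays (1.08 ± 0.18, SD, n = 4). The control arrays were tightly grouped, the PFOS arrays were spread more widely, and the groups did not overlap. The change in Cy5 alone was 0.46 (SE 0.10, limma adjusted p = 0.0384) and in Cy3 alone it was -0.04. Within the slide rows the change was 0.64 and 0.31. The paralogs gave other values: Mrps18c had a change of -0.02 (SE 0.09) and Mrps18a one of -0.05 (SE 0.09), neither past the threshold.

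Mrps30 stood on the threshold. Control arrays gave a log2 ratio of -0.43, 0.07, -0.09 and -0.06 and PFOS arrays one of 0.42, 0.45, 0.20 and 0.33, with no overlap. The change of 0.48 (SE 0.11) had a limma adjusted p of 0.0533 in the ratio and 0.0339 in Cy5 alone, where the change was likewise 0.48. Mrps30 therefore counted among 3 members that rose in Cy5 alone, beside Mrpl14 and Mrps18b, against 4.81% of all features that changed in that channel (2.39% higher and 2.42% lower). The Cy5 call of Mrps30 was lost with the slide row as a block (adjusted p = 0.0517), with 75th percentile scaling (adjusted p = 0.0649) and without PFOS 1, PFOS 2, control 3, PFOS 4 or control 4, with adjusted p-values of 0.0276 to 0.0918 over the fits that left out 1 array. In Cy3 alone, where all arrays hold the same RNA, 0 of 66 members changed by limma and 0.0789% of all features did.

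Neither call held when most single arrays were left out. When each array was left out in turn, Mrpl14 kept an adjusted p under 0.05 only without PFOS 2 or without control 3, and Mrps18b only without PFOS 3 or without PFOS 4. Their changes ranged from 0.53 to 0.65 and from 0.42 to 0.55 over those fits, and neither passed with median centring in place of loess or with the slide column as a block.

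**Figure D1:**
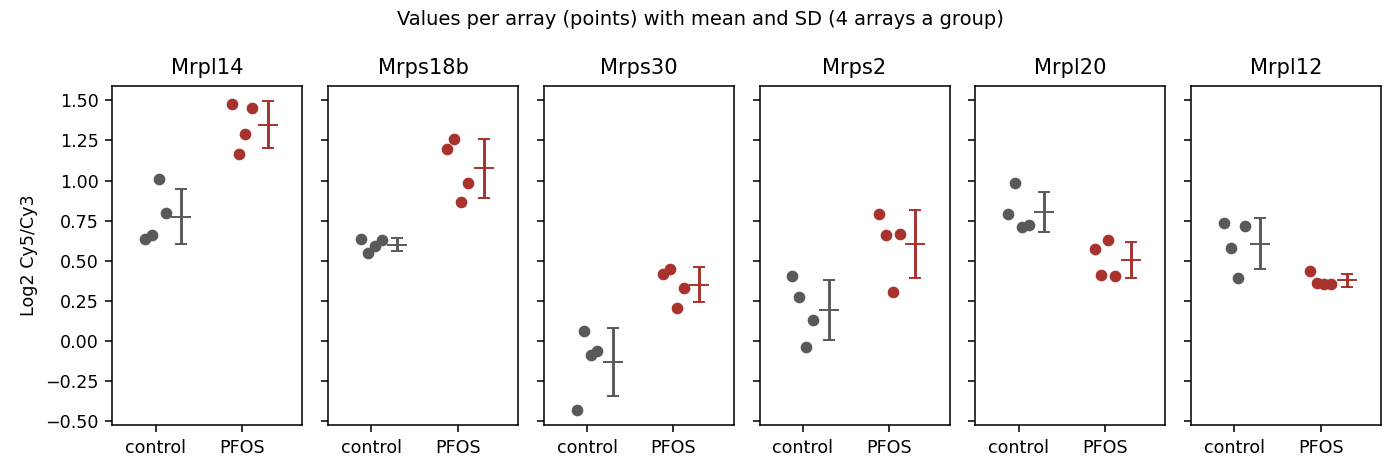
Log2 Cy5/Cy3 (vertical axis) on each of the 8 arrays for 6 members, control arrays in grey and PFOS arrays in red, with the mean and SD of each group of 4 beside the points. Mrpl14, Mrps18b and Mrps30 show groups that do not overlap with PFOS higher, Mrpl20 shows the same with PFOS lower, and in Mrps2 and Mrpl12 the groups overlap.

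The 250 bases before the annotated start, the proximal promoter, are shown for Mrpl14, Mrps30 and Mrps18b, which had the largest positive changes, and for Mrpl20. They are RefSeq sequences of GRCr8, read 5′ to 3′ on the strand of the gene. Capitals mark exact matches, on either strand, to the letters searched. For factors of the ETS family these were CCGGAAG, and for YY1 they were AAGATGGC. For the NRF1 palindrome they were GCATGC with GC before it and after it, and the inner GCATGC was also searched alone. The others were the E-box CACGTG, the cyclic AMP response element (CRE) TGACGTCA, the CCAAT box, and for PPAR a direct repeat of AGGTCA with any base between. The positions are chr9:22811234-22811483 on the minus strand for the first of 2 annotated starts of Mrpl14, chr20:2842756-2843005 on the plus strand for Mrps18b, chr2:52195905-52196154 on the minus strand for Mrps30, and chr5:171690948-171691197 on the plus strand for Mrpl20, which had the largest negative change.
Mrpl14: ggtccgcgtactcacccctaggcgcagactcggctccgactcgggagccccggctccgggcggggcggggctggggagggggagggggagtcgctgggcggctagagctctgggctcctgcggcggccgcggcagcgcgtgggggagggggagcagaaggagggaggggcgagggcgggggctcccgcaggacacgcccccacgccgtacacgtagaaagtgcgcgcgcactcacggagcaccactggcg
Mrps18b: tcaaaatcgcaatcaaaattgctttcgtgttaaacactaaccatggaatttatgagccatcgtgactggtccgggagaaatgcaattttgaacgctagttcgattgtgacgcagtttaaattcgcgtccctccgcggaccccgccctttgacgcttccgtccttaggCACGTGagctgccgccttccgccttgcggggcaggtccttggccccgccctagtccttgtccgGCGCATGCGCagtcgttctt
Mrps30: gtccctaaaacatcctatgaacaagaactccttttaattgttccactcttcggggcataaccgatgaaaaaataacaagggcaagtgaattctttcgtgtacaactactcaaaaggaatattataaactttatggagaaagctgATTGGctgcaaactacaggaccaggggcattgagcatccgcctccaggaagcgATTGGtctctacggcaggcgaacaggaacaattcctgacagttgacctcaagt
Mrpl20: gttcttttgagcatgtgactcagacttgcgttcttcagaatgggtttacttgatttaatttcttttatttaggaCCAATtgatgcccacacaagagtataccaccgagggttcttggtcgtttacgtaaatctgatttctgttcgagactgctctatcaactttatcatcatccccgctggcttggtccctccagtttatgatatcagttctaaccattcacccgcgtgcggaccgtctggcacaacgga

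The upstream sequence printed for Mrpl14 has a GC content of 76.4% and holds none of the searched letters. The other annotated start of Mrpl14, at chr9:22805865-22806114 on the minus strand for its upstream bases, has a GC content of 51.2% and a CCAAT match, read as ATTGG, at -49. That of Mrps18b holds an E-box whose first base lies at -83 from the start and the full NRF1 palindrome at -20, and in its window an ETS match begins at -3 and a YY1 match at 29. Mrps30 holds CCAAT on the opposite strand, read as ATTGG, at -106 and -53 and, past the start, again at 38, with a YY1 match at 19. Mrpl20 holds CCAAT at -176 and, past the start, an ETS match at 31. CCAAT was thus found in the windows of Mrps30, Mrpl20 and the other start of Mrpl14, YY1 letters in those of Mrps18b and Mrps30, and ETS letters in those of Mrps18b and Mrpl20. Mrps2, with a change of 0.41, is not printed, and the 250 bases before its start hold none of the searched letters.

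Windows running from 250 bases before to 50 after the start were listed for 54 of the 66 members (56 windows) and for 19005 protein-coding genes (21851 windows). ETS letters were in 33.9% of the members' windows and in 10.7% of all windows. YY1 letters were in 21.4% against 3.67%, and the NRF1 palindrome in 7.14% against 1.08%, carried by Mrpl17, Mrpl32, Mrpl44 and Mrps18b. CCAAT was in 26 of the 56 windows and in 8295 of the 21851. The shares were 10.7% and 7.02% for the E-box, 1.79% and 2.1% for CRE, and 14.3% and 7.66% for the inner GCATGC, which every palindrome contains. The PPAR letters were in 0 of the 56 windows and in 0.0229% of all windows. Median GC content was 56.0% in the members' windows and 55.0% in all, and these matches are descriptions of letters and not of binding.

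Nuclear genes for subunits of oxidative phosphorylation had ETS letters in 31.2%, YY1 letters in 18.8% and the NRF1 palindrome in 6.25% of 64 windows. Those for cytosolic ribosomal proteins had ETS letters in 29.5% of 61 windows, YY1 letters in 9.84% and the NRF1 palindrome in 0. For large-subunit and small-subunit members the ETS letters were in 12 of 36 and 7 of 20 windows, and the YY1 letters in 8 of 36 and 4 of 20.

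In 16 of the 54 members (29.6%) a gene on the opposite strand began within 1000 bases and ran the other way, against 7.22% of the 19005 genes. Such a pair joins both subunits: Mrpl46 and Mrps11 begin 234 bases apart, with changes of -0.07 (SE 0.07) and -0.12 (SE 0.07). The start of Mrps18b lies 588 bases from that of Ppp1r10, a regulatory subunit of protein phosphatase 1, whose change was 0.27 (SE 0.14, limma adjusted p = 0.307). Of the neighbours listed, 12 were tested, among them the members Mrpl46 and Mrps11, and 0 changed by limma, against 3.99% of all features. Tcp1, a chaperonin subunit beside Mrpl18, was closest to the threshold (0.34, SE 0.08, adjusted p = 0.0647).

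Over the whole family the changes were small. The median change was 0.03 and the range ran from -0.30 (Mrpl20) to 0.57 (Mrpl14), and 60 of 66 members had a change of less than 0.25 in either direction. The 95% interval of the change lay within -0.5 to 0.5 for 58 of 66 members, and for 69.8% of all tested features. Changes above 0 were found in 43 members (65.2%) and below 0 in 23, where 47.7% of all features were above 0 around a median of -0.01. The share was 76% in cytosolic ribosomal proteins and 38.9% in nuclear-coded subunits of oxidative phosphorylation, so a lean upwards was not particular to the members. Groups did not overlap in 12 members, 8 with PFOS higher and 4 with PFOS lower, against 12.8% of all features (5.91% higher and 6.89% lower).

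The large subunit had 31 of 42 members above 0 and a median change of 0.03, with 1 called (2.38%). By symbol, the small subunit had 12 of 24 above 0 and a median of 0.01, also with 1 called (4.17%). In the large subunit 21 of 42 were above 0 in slide row 1 alone (median -0.00) and 31 of 42 in row 2 alone (median 0.10), and 26 of 42 were with the log2 ratios of the authors' deposited table. The small subunit had 13 of 24 above 0 in each row alone. Per array, the median log2 ratio over the large-subunit members ranged from 0.53 to 0.61 in the control group (0.56 ± 0.04, SD, n = 4) and from 0.46 to 0.60 in the PFOS group (0.53 ± 0.06, SD, n = 4). For the small-subunit members it ranged from 0.29 to 0.38 (0.33 ± 0.04, SD, n = 4) and from 0.30 to 0.48 (0.39 ± 0.08, SD, n = 4). The ranges of control and PFOS arrays overlapped for both subunits. Members share arrays and are not replicates, so no test was made over them.

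**Figure D2:**
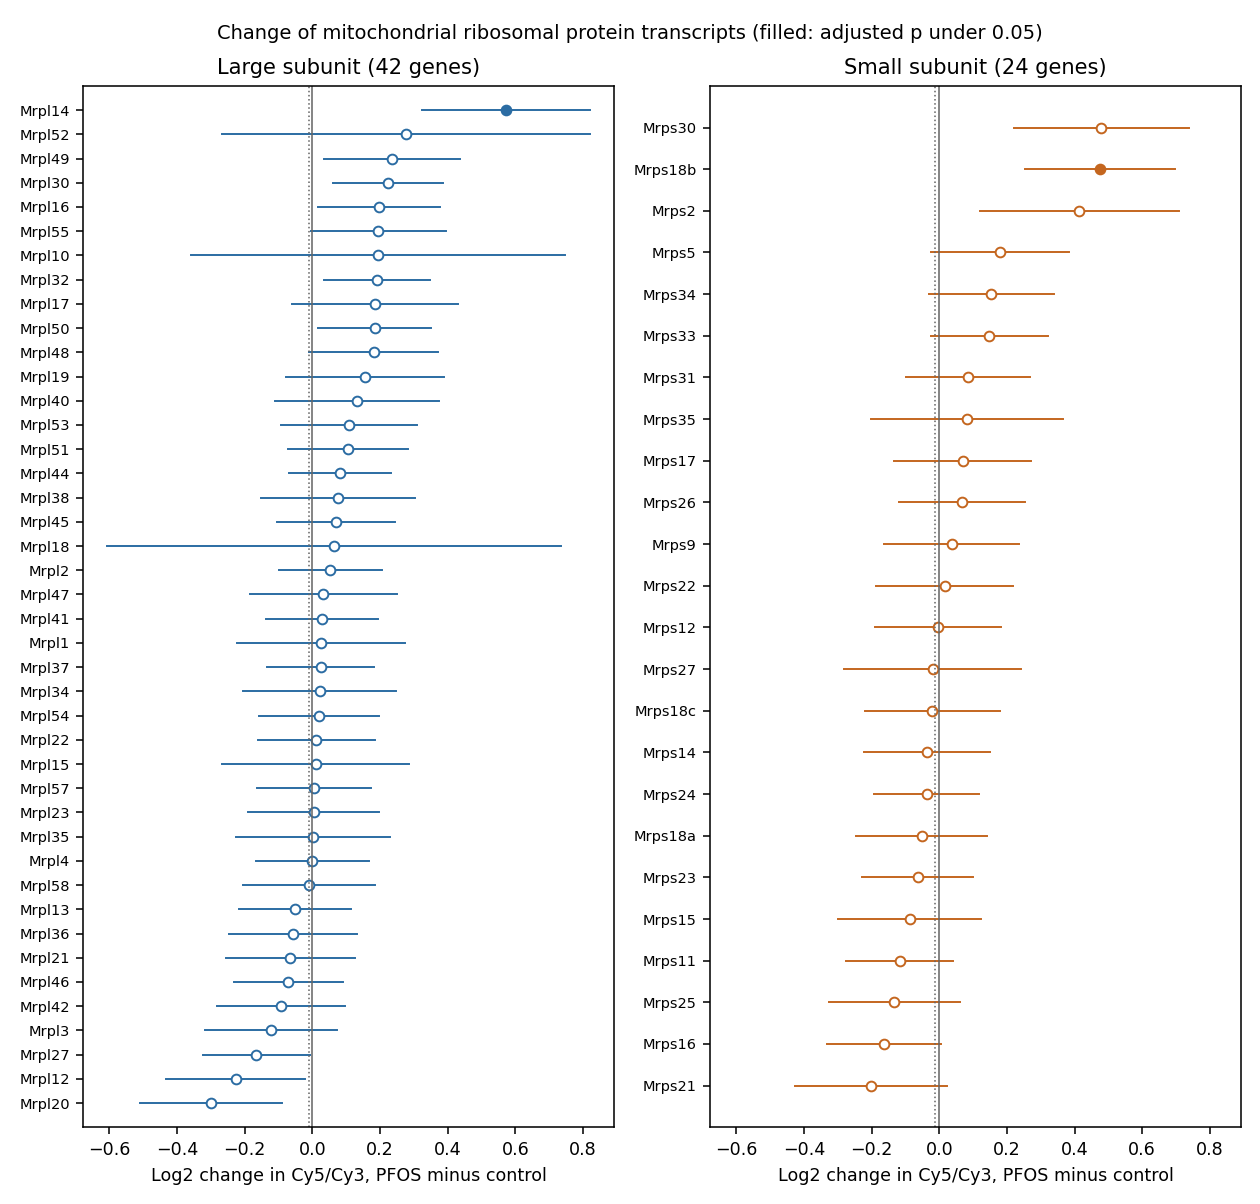
Log2 change in Cy5/Cy3 (horizontal axis, PFOS minus control, 4 arrays a group) of the 42 large-subunit and 24 small-subunit members, ordered by size, with 95% intervals as bars and the median of all tested features as a dotted line. Mrpl14 and Mrps18b are filled (adjusted p under 0.05), most others lie within 0.25 of 0, and Mrpl18, Mrpl10 and Mrpl52 have the widest intervals.

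Among large-subunit members above 0, the next after Mrpl14 in size was Mrpl52 at 0.28 (SE 0.24), whose groups overlapped. Mrpl49 followed with 0.27, 0.28, 0.02 and 0.27 in the control arrays against 0.53, 0.41, 0.33 and 0.51 in the PFOS arrays, a change of 0.23 (SE 0.09, limma adjusted p = 0.189). Mrpl30 had 0.94, 0.95, 0.81 and 0.92 against 1.19, 1.09, 1.15 and 1.08, a change of 0.22 (SE 0.07, limma adjusted p = 0.129). In both genes each PFOS array exceeded each control array, yet neither passed the test over all features. The same held for Mrpl16 (0.20, SE 0.08), Mrpl50 (0.18, SE 0.07) and Mrpl32 (0.19, SE 0.07), the last of which encodes a protein that the m-AAA protease trims on import before it joins the ribosome.

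At the other end, Mrpl20, whose bacterial counterpart binds ribosomal RNA early in large-subunit assembly, had 0.79, 0.99, 0.71 and 0.72 in the control arrays and 0.58, 0.41, 0.63 and 0.40 in the PFOS arrays. Each PFOS array lay below each control array. The change was -0.30 in the ratio (SE 0.09, limma adjusted p = 0.122) and -0.31 in Cy5 alone (adjusted p = 0.0718). Mrpl27, which reaches towards the peptidyl transferase centre, had a change of -0.17 (SE 0.07, adjusted p = 0.230), also without overlap. Mrpl3, a core protein of the same region, had one of -0.12 (SE 0.09) with overlapping groups.

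Mrpl12, a protein of the stalk that recruits translation factors, showed the largest gap between the ratio and the Cy5 signal. Its log2 ratio was 0.73, 0.58, 0.39 and 0.72 in the control arrays and 0.44, 0.36, 0.36 and 0.36 in the PFOS arrays, a change of -0.23 (SE 0.09, limma adjusted p = 0.209). In Cy5 alone the change was -0.11, and in Cy3, the reference channel, it was 0.12. Control 4 had the lowest Cy3 value of Mrpl12, 14.71 on the log2 scale, where the other arrays had 15.07 to 15.16. Mrpl10, which anchors that stalk, had a change of 0.19 (SE 0.25) from 1 probe and of 0.02 from its second probe.

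Among small-subunit members, Mrps2 came after Mrps30 and Mrps18b. The values were 0.40, 0.27, -0.03 and 0.13 in the control arrays and 0.79, 0.66, 0.30 and 0.67 in the PFOS arrays, a change of 0.41 (SE 0.13, limma adjusted p = 0.123). PFOS 3 fell inside the control range and the other PFOS arrays lay above it. Mrps5, Mrps34 and Mrps33 had changes of 0.18 (SE 0.09), 0.15 (SE 0.08) and 0.15 (SE 0.08), none past the threshold. Lowest were Mrps21 at -0.20 (SE 0.10), Mrps16 at -0.16 (SE 0.07), Mrps25 at -0.13 (SE 0.09) and Mrps11 at -0.12 (SE 0.07). In Mrps16 and Mrps11 the PFOS arrays lay below all control arrays, with limma adjusted p-values of 0.265 and 0.385. The second probe of Mrps16 also had a change of -0.17, but its groups overlapped, with control 4 at 1.42 and PFOS 3 at 1.59.

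Mrpl44 and Mrps22, both known from inherited disorders of mitochondrial translation, had changes near 0. Mrpl44, an RNase III-like protein, had one of 0.08 (95% interval -0.07 to 0.23). Mrps22 had one of 0.02 (95% interval -0.19 to 0.22), and Mrps12, part of the decoding centre, one of -0.00 (95% interval -0.19 to 0.18). Mrpl58, a ribosomal protein that also acts as a peptidyl-tRNA hydrolase, gave -0.01 (95% interval -0.20 to 0.18). Mrps35 had a change of 0.08 (SE 0.13), Mrpl55 one of 0.19 (SE 0.09), Mrps23 one of -0.06 (SE 0.07) and Mrps15 one of -0.09 (SE 0.09), none past the threshold. The intervals leave room for changes of about that size in either direction, and the test does not show that the levels were equal.

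Changes in the ratio and in Cy5 alone were close to each other. The ratio contains the same Cy5 signal, and the members' changes in Cy3 ran only from -0.11 to 0.12. The closeness was thus largely fixed beforehand, and Cy5 alone is no independent measurement. The ratio and Cy5 alone gave the same sign for 59 of 66 members, and the largest difference between them was the 0.12 of Mrpl12. In Cy5 alone 42 members were above 0, with a median of 0.05, where 49.1% of all features were. Of 9 members with 2 tested probes, the probes of Mrpl35 and Mrpl54 had opposite signs, both within 0.05 of 0, and the largest difference between probes was the 0.17 of Mrpl10.

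**Figure D3:**
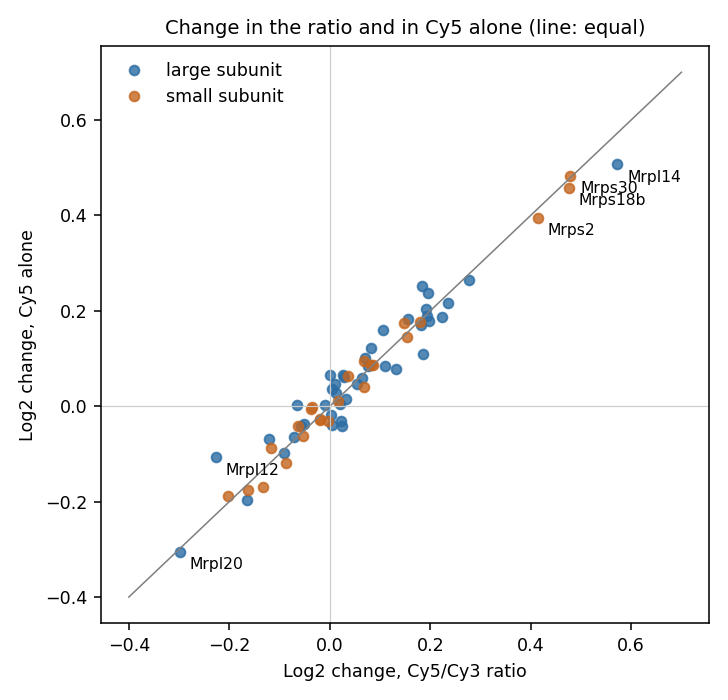
Log2 change in Cy5 alone (vertical axis) against log2 change in Cy5/Cy3 (horizontal axis) for the 66 members, large subunit in blue and small subunit in orange, with the line of equal values. Points follow the line, with Mrpl12 farthest from it at a difference of 0.12. Both axes share the same Cy5 signal.

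Relative to the reference pool of rat RNA, control liver had more of most of these transcripts. The mean log2 ratio over the 4 control arrays was above 0 for 56 of 66 members, where 56.4% of all features were, with medians of 0.57 for the large subunit, 0.36 for the small subunit and 0.16 for all features; with median centring in place of loess the subunit medians were -0.29 and -0.61, so the sign of this level depends on the dye normalization. In the large subunit the highest were Mrpl15 (1.77 ± 0.13, SD, n = 4) and Mrpl52 (1.41 ± 0.53, SD, n = 4). The lowest were Mrpl45, which helps to hold the ribosome at the inner membrane (-0.82 ± 0.04, SD, n = 4), and Mrpl13 (-0.24 ± 0.06, SD, n = 4). In the small subunit Mrps16 (1.71 ± 0.06, SD, n = 4) and Mrps34 (1.28 ± 0.07, SD, n = 4) were highest, and Mrps27 (-0.57 ± 0.18, SD, n = 4) and Mrps17 (-0.31 ± 0.14, SD, n = 4) lowest. Each is a ratio within its own probe, so the order is one of liver against pool and not of abundance between genes.

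**Figure D4:**
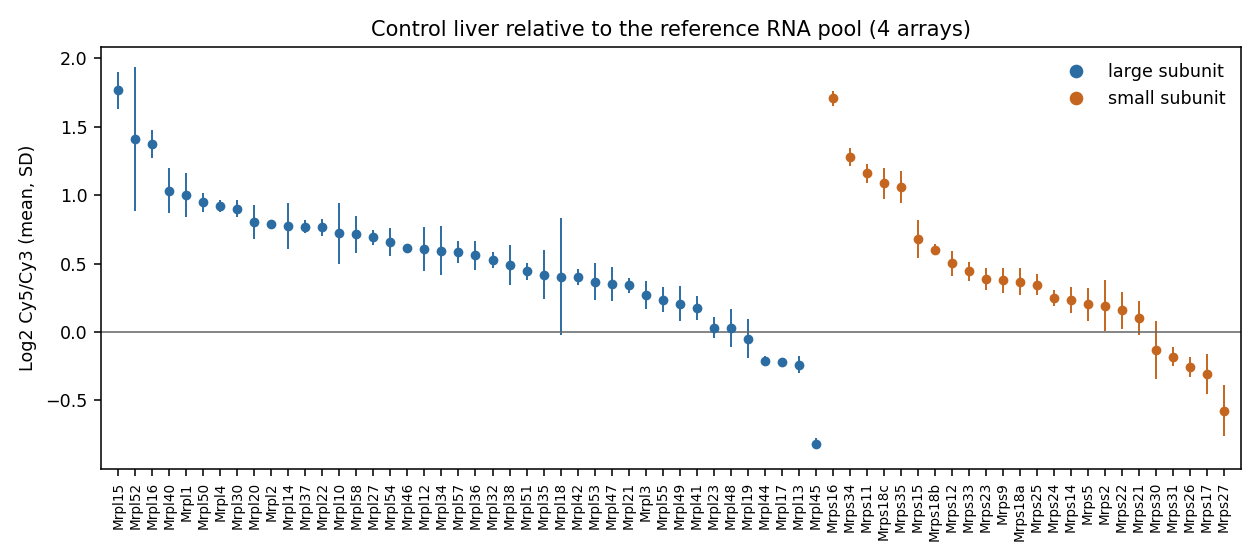
Log2 Cy5/Cy3 (vertical axis) in control liver relative to the reference RNA, as mean and SD of 4 control arrays, for each member in order of level within its subunit. Mrpl15 and Mrps16 are highest at 1.77 and 1.71, Mrpl45 and Mrps27 lowest at -0.82 and -0.57, and the sign depends on the loess normalization.

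Other families whose proteins serve ribosomes or mitochondria also had few called members, where 3.99% of all features were called in either direction. Cytosolic ribosomal proteins had 1 of 75 tested members higher (1.33%; Rps26, 0.35, SE 0.07, limma adjusted p = 0.0304) and a median change of 0.06. Nuclear-coded subunits of oxidative phosphorylation, which join the products of the mitochondrial ribosome in the respiratory complexes, had 1 of 72 lower (1.39%; Uqcrh, a hinge protein of complex III, -0.33, SE 0.07, limma adjusted p = 0.0402) and a median of -0.03. The differences between these families were not tested.

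Several genes that build the mitochondrial ribosome rose. Of 30 listed assembly factors, 25 were tested, 4 rose and 0 fell (16%), against 1.84% of all features higher, with a median change of 0.13. The count was 0 without control 1 or PFOS 1, 1 without control 2, PFOS 2 or control 4, 2 without control 3 or PFOS 4, and 3 without PFOS 3, and it was 0 with median centring or with the slide column as a block. The 5 subunits with other names (Dap3, Ptcd3, Chchd1, Aurkaip1 and Gadd45gip1) had 0 called by limma, against 3.99% of all features. At an unadjusted p under 0.05 there was 1, against 19.9% of all features: Aurkaip1 at 0.33 (SE 0.09, limma adjusted p = 0.0783).

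Noa1, a GTPase needed for the small subunit, had the largest change among the assembly factors. Its log2 ratio was -1.20, -1.01, -1.25 and -0.89 in the control arrays and -0.45, -0.45, -0.68 and -0.65 in the PFOS arrays, a rise of 0.53 (SE 0.11, limma adjusted p = 0.0264). Mrm3, which methylates the large ribosomal RNA, went from 0.13, 0.08, -0.13 and 0.10 to 0.61, 0.42, 0.32 and 0.60, a rise of 0.44 (SE 0.10, limma adjusted p = 0.0404). In both genes the groups were fully apart. Nsun4, which methylates the small ribosomal RNA and takes part in joining the subunits, had 0.52, 0.58, 0.55 and 0.48 against 1.04, 0.92, 0.83 and 1.00, a rise of 0.41 (SE 0.08, limma adjusted p = 0.0193). Gtpbp10, a GTPase of large-subunit assembly, rose by 0.37 (SE 0.08, limma adjusted p = 0.0357), and Malsu1, the partner of the Mrpl14 protein, had a change of 0.38 (SE 0.11, adjusted p = 0.110). In Cy5 alone Nsun4, Gtpbp10 and Mrm3 passed and Noa1 did not (0.49, SE 0.13, adjusted p = 0.0602).

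The other lists of the pathway held 0 or 1 called gene each, where 3.99% of all features were called in either direction. Among translation factors 0 of 17 tested genes changed by limma, with a median of -0.01. An unadjusted p under 0.05 was found in 4 of the 17, near the 19.9% of all features. Mtrf1l, a release factor, had a change of 0.30 (SE 0.09) and Mtrfr, a ribosome rescue factor, one of -0.27 (SE 0.09). Genes of mitochondrial DNA and RNA synthesis had 0 of 16 called and 2 at an unadjusted p under 0.05, against the same 19.9%. All 16 changes were above 0, with a median of 0.13, where 47.7% of all features were above 0. In each slide row alone some of the 16 were below 0, the lowest at -0.13 in row 1 and -0.12 in row 2. Within this list Tfam, which packages mitochondrial DNA, had 0.16 (SE 0.08) and Polrmt, the mitochondrial RNA polymerase, 0.09 (SE 0.08). Of 15 aminoacyl-tRNA synthetases, Cars2 fell by 0.50 on the log2 scale (SE 0.10, limma adjusted p = 0.0325), and Ears2 had a change of 0.47 (SE 0.11, adjusted p = 0.0514 in the ratio and 0.0311 in Cy5 alone). The fall of Cars2 was lost in 7 of the fits that left out 1 array, all but the fit without PFOS 3, and under 9 of 18 other settings.

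Pprc1, a coactivator of the PGC-1 family that works with the transcription factor NRF1, had the largest called change of any gene listed here. Its log2 ratio was -1.82, -1.98, -2.11 and -1.79 in the control arrays and -0.90, -1.03, -1.22 and -1.11 in the PFOS arrays. The rise of 0.86 (SE 0.10, limma adjusted p = 0.00321) was 1.82-fold, and the largest adjusted p with any single array left out was 0.0123. The call was lost in either slide row alone, where the changes were 0.94 and 0.78. Pprc1 was 1 of 10 tested regulators of mitochondrial biogenesis to pass, and Nrf1 itself had a change of 0.29 (SE 0.08, adjusted p = 0.0858). Gabpa, an ETS factor, had a change of -0.10 (SE 0.07) and Yy1 one of 0.19 (SE 0.09), neither past the threshold, and Ppargc1a was not tested. Changes smaller than that of Pprc1 but larger in size than that of Nrf1, and not called, were 0.72 for Myc and -0.50 for Ppara. The change of Myc was -0.10 in slide row 1 and 1.53 in slide row 2.

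**Figure D5:**
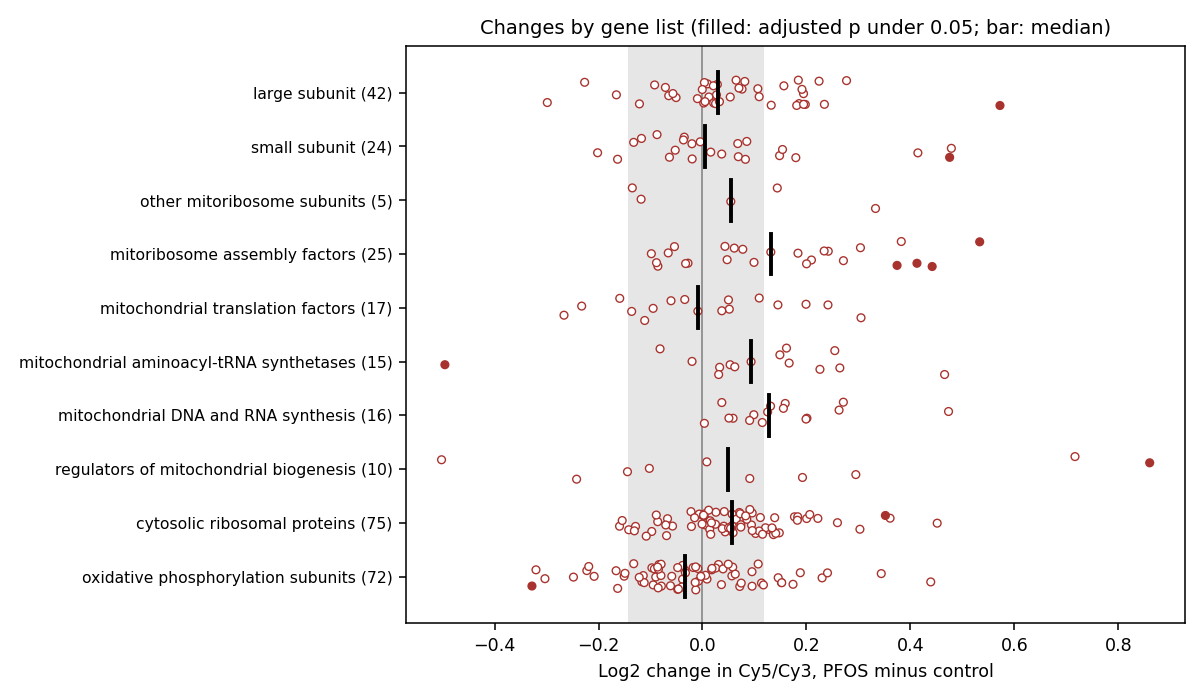
Log2 change in Cy5/Cy3 (horizontal axis, PFOS minus control) of each tested gene in the 2 subunits and 8 other lists, with filled points for an adjusted p under 0.05, a bar at each list's median and grey shading for the interquartile range of all tested features. The assembly factors hold 4 filled points, Pprc1 lies farthest right at 0.86 and Cars2 is the filled point at -0.50.

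In whole tissue, fewer cells of a type and less RNA per cell cannot be told apart. Defining hepatocyte markers were abundant, and 12 of 12 were tested. By limma 0 changed in the ratio, against 3.99% of all features, and 1 was lower in Cy5 alone, against 2.42%. Their summed Cy5 signal was 1464760 to 1541030 in the control arrays and 1383180 to 1460030 in the PFOS arrays, lower without overlap. Summed markers of sinusoidal endothelium (5 of 9 tested, Tek not above background) were 9298 to 16117 against 7020 to 9846, and those of cholangiocytes (4 of 7 tested) 1082 to 1330 against 1324 to 1544. Kupffer cell and macrophage markers (12 of 12 tested) summed to 43299 to 72535 against 37421 to 58504. Those of stellate cells and fibroblasts (9 of 10 tested) summed to 13148 to 16718 against 12495 to 14330, of erythroid cells (4 of 6 tested) to 96092 to 245467 against 112407 to 139877, and of lymphocytes (6 of 10 tested) to 1792 to 1900 against 1597 to 2116. The T-cell markers Cd3e and Cd2 were not above background. No marker of any list changed in the ratio, where 3.99% of all features did, so few calls would be found in lists this short. The part of these shifts in the changes of Mrpl14, Mrps18b and the assembly factors was not tested.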

How the data were processed

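Liver RNA (Cy5) of 4 control and 4 PFOS rats was compared on 2-colour Agilent arrays with a common reference (Cy3). Spot intensity values on a linear scale were deposited by the authors, who used Agilent Feature Extraction (version 10.7.3.1), per the submitters' processing notes. The median signal and median local background were used. A further deposited file of the authors gives log2 ratios, whose making is not given in the sources used here. Each column correlated at 0.995 to 0.997, with slopes of 0.989 to 0.993, with the loess-normalized log2 ratio without background subtraction. Its medians per array were -0.048 to -0.061, and its centring is unknown. It served as an alternative.

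Of 62976 spots an array, 4259 were controls, 733 to 991 were outliers and left out, and 0 were saturated. Background was corrected with normexp (offset 50) on all spots, loess within each array gave control spots a weight of 0, and spots of a probe were averaged. Cy5 and Cy3 alone were quantile normalized. Median Cy5 signals were 116 to 160 over a background of 71 to 75, and 50.3% to 59.1% of probes were well above background. A probe counted as above background on an array where at least as many of its spots were as were not, and 16952 probes so on at least 4 of 8 arrays were kept. The probe with the highest Cy5 signal stood for its gene. Probes were named by accession through RefSeq (GRCr8). The number of arrays limits the precision.

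The groups were compared with limma 3.58.1 (lmFit and eBayes, two-sided, Benjamini-Hochberg over 15203 features) in R 4.3.3, with data.table (version 1.17.8). The fit was also run on simulated data with known changes. A first criterion on power was missed there and was replaced by one on bias and false calls. Replicate numbers follow the order of deposition and pair nothing. The labels give separate animals. No list was tested as a set. Alternatives changed the background correction, normalization, filter, probe choice, fit options, fold minimum, slide row and column, and left out each array.

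The named genes are members called in any channel, the 6 largest changes each way and the 2 highest and lowest control levels in each subunit, some further members whatever their p, and in each list every called gene and the 2 smallest p-values. Tcp1, Ppp1r10, Rps26, Uqcrh, Polrmt, Tfam, Gabpa, Yy1, Myc, Ppara, Malsu1, Mrpl18, Mrpl32, Mrpl35, Mrpl47, Mrpl50 and Mrpl54 fall outside that rule and were named after their values were seen. Mrpl17, Dap3, Ptcd3 and Chchd1 also fall outside it and are named without their changes. The members, lists and rule were chosen with earlier results of these data known.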

Additional observations from a re-analysis of the deposited data

Results flagged for a closer look

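In groups of 4 arrays, 5 of 102 groups tested over 51 genes held an array far from the other three by Dixon's ratio at the 95% level, and chance gives about 1 in 20. Mrpl49 had a log2 ratio of 0.02 on control 3, where the other control arrays had 0.27 to 0.28. Mrpl42 was at 0.32 on control 3 against 0.43 to 0.44 on the others. Mtrfr, the rescue factor, was at 0.22 on control 3 against -0.01 to 0.03. Mrpl12 was at 0.44 on PFOS 1, with each of the other PFOS arrays at 0.36. Mrps18a was at 0.47 on PFOS 1 against 0.25 to 0.28 on the others. None of these genes was called in the ratio.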

How the results depend on the processing

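Of 15203 features, 606 were called in the ratio. The count was 239 with median centring, 384 with scaling between arrays, 344 at 1.5-fold or more, 268 with the slide column as a block, 93 in slide row 1 alone, 32 in slide row 2 alone, and 350 (without control 1) to 519 (without PFOS 4) with single arrays left out. The members called in the ratio, 2, became 0 with median centring, at 1.5-fold or more, with the column block and in either row alone, 3 (Mrps30 added) with probes above background on all 8 arrays or with trend and robust options, and 0 to 1 with single arrays left out. The other alternatives kept the same 2 genes. In Cy5 alone 731 features and 3 members were called, 407 and 1 with 75th percentile scaling, 445 and 1 with the column block, 2 members with the row block, and 420 to 685 features and 0 to 3 members with single arrays left out. The 4 assembly factors became 0 with median centring, at 1.5-fold or more, with the column block and in either row alone, and 0 to 3 with single arrays left out, a recount chosen after seeing the data, as was the stricter rule that more spots of a probe be above background than not (607 features, the same 2 members). The large subunit's median change was 0.10 in row 2 alone. The small subunit's median change was -0.01 without control 1 or without control 3. The control levels of both subunits, 0.57 and 0.36, were -0.29 and -0.61 with median centring. The causes were not tested, except that a row alone or a left-out array has fewer samples. Of the named genes recomputed, none that was called turned direction; Rps26, Uqcrh and the other called features were not recomputed singly. No paired analysis was possible because the labels number no replicates, though the column block does pair 1 control with 1 PFOS array by slide position. Mrpl47 was near background, and signals of dim probes are the least precise.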

Other observations

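The probes that stood for Mrpl18, Mrpl10 and Mrpl52 had the largest spread between arrays of the same group in the family. Each rat was on its own array, so spread between rats and between arrays cannot be told apart. Mrpl18, whose bacterial counterpart binds 5S ribosomal RNA, had a log2 ratio of -0.09, 0.89, 0.59 and 0.22 in control 1 to 4 and of 0.72, 0.01, 1.17 and -0.03 in PFOS 1 to 4. The SD within groups was 0.51, where the median over the 66 members was 0.10 and over all 15203 features 0.16. Mrpl10 followed with 0.42 and Mrpl52 with 0.41, the latter from a control 1 value of 0.68 beside 1.84, 1.76 and 1.37 on the other control arrays. The spread lay in the liver channel: within groups Mrpl18 had an SD of 0.51 in Cy5 and of 0.05 in Cy3.

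The second probe of Mrpl10 did not show that spread. Its values were 0.69, 0.88, 0.72 and 0.92 in the control arrays and 0.92, 0.68, 0.90 and 0.80 in the PFOS arrays (SD within groups 0.11). The first probe gave 0.40, 0.88, 0.74 and 0.86 in the control arrays and 0.98, 1.504, 0.99 and 0.18 in the PFOS arrays. The probes differed most on PFOS 2 and PFOS 4.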
